A study of Rattus norvegicus with 12 samples.

Results

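Immediate early genes are transcribed within minutes of a growth factor, cytokine or stress signal, without new protein synthesis. The 10 genes described here are Fos, Fosb, Jun, Junb, Egr1, Ier2, Atf3, Klf6, Dusp1 and Zfp36, taken by their gene symbols in the platform annotation. All 10 were measured, among 14217 genes with 1 gene symbol on the array, through 16 probe sets. The probe set with the highest mean stands for a gene, and the other probe sets of Fos, Jun, Klf6 and Dusp1 are given beside it. RNA of rat esophagus was hybridised to 12 Affymetrix arrays, 3 in each of 4 groups. Control rats received the solvent, dimethyl sulfoxide in water. The other rats received NMBA (N-nitrosomethylbenzylamine), a carcinogen that gives rise to squamous papillomas and carcinomas in this tissue, at 0.3 mg per kg. They were sampled at week 6, week 15 or week 29, and the labels call these tumor stages early, middle and late. Every rat had 0.2 ml injected under the skin 3 times per week for 5 weeks and was kept 3 to a cage. Strain, age at sampling and the week of the controls were not stated in the labels, and age and stage cannot be told apart. One label field counts the weeks from NMBA treatment, without saying from its start or its end. Whether the 12 arrays stand for 12 animals is not stated, and the p-values then cover only the spread between samples, which may be technical.

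Fos, Fosb, Jun and Junb encode subunits of AP-1, a dimeric transcription factor built from a Jun family protein and a partner from the Fos, Jun or ATF families. Atf3 is a stress-induced member of the ATF family. Egr1 and Klf6 are zinc finger transcription factors, and Ier2 is a short-lived nuclear protein induced with them. Dusp1, a phosphatase, and Zfp36, which binds AU-rich mRNAs and speeds their decay, are induced by the same signals and switch off MAP kinases and cytokine mRNAs. In squamous epithelium AP-1 takes part in keratinocyte growth and differentiation. Known promoter elements of such induction are the cAMP response element and the CArG box bound by serum response factor.

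Promoter sequences from RefSeq (build GRCr8) were matched by symbol for 7 of the 10 genes, as 250 bases before the annotated start. They are shown for 4 genes: Junb and Ier2, whose signals moved most closely together, and Dusp1 and Zfp36, the feedback regulators. Capitals mark the short cAMP response element TGACG, the full palindrome TGACGTCA, which holds the short element on both strands, the TATA box letters TATAAA, and the CArG box.
Junb, chr19:40080876-40081125, plus strand: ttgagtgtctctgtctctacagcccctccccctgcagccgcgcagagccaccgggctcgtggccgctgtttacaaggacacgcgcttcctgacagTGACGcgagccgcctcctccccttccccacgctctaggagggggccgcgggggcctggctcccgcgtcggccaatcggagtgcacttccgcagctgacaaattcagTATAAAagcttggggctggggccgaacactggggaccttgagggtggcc
Ier2, chr19:40399123-40399372, plus strand: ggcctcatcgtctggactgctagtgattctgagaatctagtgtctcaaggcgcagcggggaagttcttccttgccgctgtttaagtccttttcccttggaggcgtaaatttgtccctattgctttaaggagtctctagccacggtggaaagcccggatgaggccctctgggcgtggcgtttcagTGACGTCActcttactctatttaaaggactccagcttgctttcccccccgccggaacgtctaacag
Dusp1, chr10:17184603-17184852, plus strand: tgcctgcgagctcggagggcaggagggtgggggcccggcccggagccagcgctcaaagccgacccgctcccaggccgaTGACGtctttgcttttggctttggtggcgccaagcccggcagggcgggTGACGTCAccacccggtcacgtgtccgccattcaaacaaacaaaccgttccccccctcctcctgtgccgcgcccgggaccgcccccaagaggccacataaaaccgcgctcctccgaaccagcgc
Zfp36, chr1:92799109-92799358, minus strand: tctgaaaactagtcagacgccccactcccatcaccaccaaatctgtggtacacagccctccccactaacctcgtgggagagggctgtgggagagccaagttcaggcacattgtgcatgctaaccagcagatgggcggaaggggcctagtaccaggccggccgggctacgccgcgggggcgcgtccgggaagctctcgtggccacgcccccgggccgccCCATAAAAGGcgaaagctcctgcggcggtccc

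The full element TGACGTCA was found in 2 of the 7 promoters, those of Ier2 and Dusp1, and in 1.59% of all 33469 promoter windows of this length. TGACG alone was found in 4 of the 7 (Junb, Egr1, Ier2 and Dusp1) and in 18.2% of all windows. A CArG box was found in 3 of the 7 (Egr1, Klf6 and Zfp36) and in 1.5% of all windows, and in Zfp36 it lies from base -32 to -23. TATAAA was found for Fosb and Junb, against 12.9% of all windows. The AP-1 site TGAGTCA was found in 0 of the 7 and in 4.05% of all windows, and the EGR site GCGGGGGCG in Zfp36 alone and in 2.45%. Both strands were searched. A match describes the letters of the window and does not show a bound site. Junb and Ier2 lie on chromosome 19 with 17 protein-coding genes between them.

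The tissue was checked against marker lists. Keratins of esophageal squamous epithelium were bright on every array, with Krt13 between 13.17 and 14.55 and Krt5 between 12.37 and 13.70 on the log2 scale of the deposited signals. Skeletal muscle genes were bright too, although the protocol removed the muscle layers, with Acta1 between 14.03 and 14.71. A score, the mean log2 signal of a marker list in 1 array, was taken for 23 squamous keratinocyte and 29 skeletal muscle markers. The keratinocyte score ran from 10.998 to 11.31 in controls, 10.20 to 10.48 at week 6, 11.32 to 11.76 at week 15 and 9.73 to 10.43 at week 29. The muscle score ran from 12.09 to 12.50 in controls, 12.74 to 12.90 at week 6, 10.54 to 12.04 at week 15 and 12.56 to 12.72 at week 29. The signal difference between 3' and 5' GAPDH control probe sets, larger in degraded RNA, ran from 0.22 to 0.53 in controls, 0.07 to 0.15 at week 6, 0.22 to 0.60 at week 15 and 0.13 to 0.21 at week 29. All 3 measures thus moved with the groups. Fibroblast markers were lower in 8 of 9 cases at week 15 against control, and endothelial markers in 7 of 11 at week 29. Smooth muscle markers were lower in 4 of 7 at week 29 (median log2 fold change -1.33). Of all genes, 8.38% were called lower at week 15 and 10.8% at week 29. In bulk tissue, fewer cells of a type and less RNA per cell cannot be told apart.

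At week 29, Junb, Ier2 and Klf6 were lower than in controls and Jun was higher. Week 6 showed a rise of Jun alone, and at week 15 no member passed the test against controls. Between weeks 15 and 29 the contrast was widest, with Fosb, Junb, Egr1, Ier2, Klf6 and Zfp36 lower at week 29 and Jun higher. Fos, Atf3 and Dusp1 did not pass in any of the 6 comparisons. Jun therefore passed in the direction opposite to Junb and Ier2 in each of the 3 comparisons in which all of them passed.

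**Figure D1:**
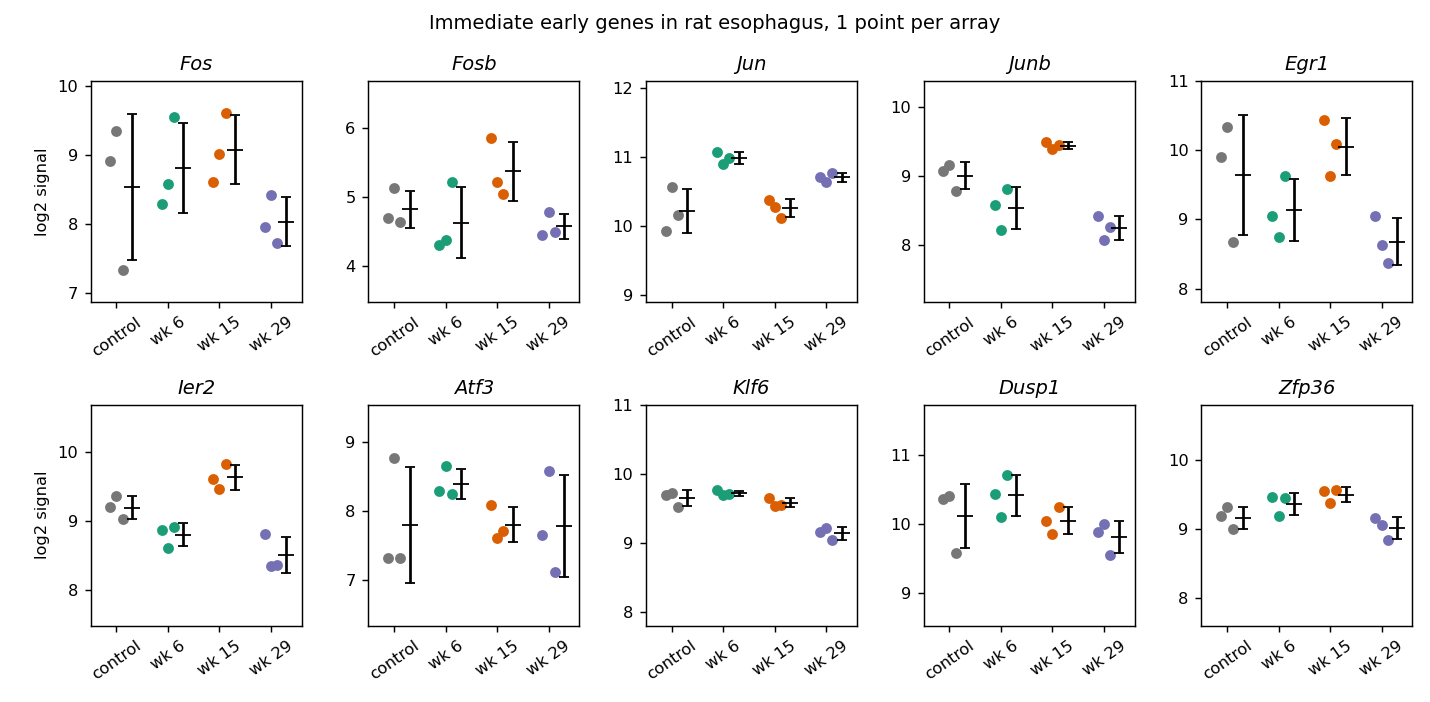
Log2 signal of the 10 immediate early genes on each of the 12 arrays, by group (3 points per group, horizontal bar for the mean and error bar for the SD). Every panel spans the same range of log2 units. The week 15 arrays hold the highest 3 values of Junb and of Ier2, and the week 6 arrays the highest 3 of Jun.

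Jun, the founding AP-1 subunit, had log2 signals of 9.93, 10.57 and 10.15 in controls, 11.07, 10.90 and 10.98 at week 6, 10.37, 10.27 and 10.11 at week 15 and 10.71, 10.64 and 10.77 at week 29. All week 6 and week 29 arrays lay above all control and week 15 arrays, and the week 15 arrays lay inside the control range. The difference between week 6 and control was 0.77 ± 0.14 in log2 units (SE, n = 3 in each group, adjusted p = 0.0209), a 1.70-fold rise. At week 29 it was 0.49 ± 0.14 (adjusted p = 0.0373). Week 15 minus week 6 was -0.73 (adjusted p = 0.00173), and week 29 minus week 15 was 0.45 (adjusted p = 0.0236). The other Jun probe sets gave week 6 rises of 0.55 and 1.13, both called, but at week 29 they gave 0.34 and 0.73 with adjusted p = 0.0832 and 0.0537, so only 1 of 3 probe sets passed there. For week 29 minus week 15 they gave 0.47 (adjusted p = 0.0112) and 0.32 (adjusted p = 0.327), so the second did not pass. Between arrays the 3 probe sets moved together, with r between 0.73 and 0.93 over 12 arrays.

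The week 6 rise of Jun lost its call without any 1 of control replicate 1 (0.62, adjusted p = 0.0836), control replicate 3 (0.73, adjusted p = 0.081) or week 6 replicates 1, 2 and 3 (adjusted p = 0.0625, 0.0612 and 0.0701). With those arrays left out, 3, 1, 57, 1 and 3 of all 31042 probe sets were called, in that order, where 2342 had been. The week 29 rise of Jun lost its call without control replicate 1 or 3 (adjusted p = 0.13 and 0.112), week 6 replicate 1 or 2 (0.052 and 0.0508) or week 29 replicate 1, 2 or 3 (0.0555, 0.0888 and 0.137). It also lost it after quantile normalization (adjusted p = 0.0641), when only these 2 groups were fitted (0.0721) and with the replicate block (0.0518). Calls over all probe sets at week 29 fell from 4705 to 689 and 976 without control replicate 1 or 3. They were 3406 and 3556 without week 6 replicate 1 or 2, and 6120, 769 and 274 without week 29 replicate 1, 2 or 3. For Jun, the difference between weeks 29 and 15 lost its call after quantile normalization (0.0964) or without week 15 replicate 3 (0.086) or week 29 replicate 3 (0.0787).

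Junb, an AP-1 subunit that can oppose Jun in mouse cells, had signals of 9.08, 9.16 and 8.79 in controls, 8.58, 8.22 and 8.81 at week 6, 9.49, 9.39 and 9.45 at week 15 and 8.43, 8.07 and 8.26 at week 29. Every week 15 array lay above every control, and every week 29 array below. Against control, week 29 differed by -0.75 ± 0.15 (SE, n = 3 per group, adjusted p = 0.0132), a 1.69-fold fall. Against week 15 it differed by -1.19 ± 0.15 (adjusted p = 0.000134), and week 15 minus week 6 was 0.91 (adjusted p = 0.000718). Against controls, week 6 at -0.47 (adjusted p = 0.0728) and week 15 at 0.44 (adjusted p = 0.0977) did not pass.

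Ier2 showed the same order of groups. Its signals were 9.20, 9.36 and 9.02 in controls, 8.87, 8.61 and 8.92 at week 6, 9.61, 9.46 and 9.83 at week 15 and 8.81, 8.34 and 8.36 at week 29. No week 6 or week 29 array reached the lowest control, and no week 15 array fell to the highest. Week 29 minus control was -0.69 ± 0.15 (SE, n = 3 per group, adjusted p = 0.0163) and week 29 minus week 15 was -1.13 ± 0.15 (adjusted p = 0.000174). Week 15 minus week 6 was 0.83 (adjusted p = 0.00118). Over 12 arrays the signals of Junb and Ier2 correlated at r = 0.97, and their deviations from the group means at r = 0.77, which is a description of arrays that share samples and scaling. The week 29 falls of both genes lost their calls without control replicate 1 (adjusted p = 0.0543 for Junb and 0.0592 for Ier2), week 29 replicate 2 (0.057 and 0.068) or week 29 replicate 3 (0.0608 and 0.0819). Without these arrays 689, 769 and 274 of all probe sets were called at week 29 against control, where 4705 had been. The differences of Junb and Ier2 between weeks 29 and 15 stayed called whichever of the 12 arrays was left out.

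Fosb, a Fos family subunit, was the dimmest member, brighter on average than 24.0% of probe sets. It had 4.69, 5.12 and 4.63 in controls, 4.29, 4.37 and 5.21 at week 6, 5.85, 5.21 and 5.04 at week 15 and 4.44, 4.77 and 4.49 at week 29. The week 15 arrays were high, but 1 control and 1 week 6 array overlapped them. Week 15 minus week 6 was 0.74 ± 0.25 (SE, n = 3 per group, adjusted p = 0.0365) and week 29 minus week 15 was -0.80 ± 0.25 (adjusted p = 0.0276). The first difference lost its call without week 15 replicate 1 (0.50, adjusted p = 0.152) or week 6 replicate 1 or 2 (0.134 and 0.123), after quantile normalization (0.0596), with only the 2 groups fitted (0.0809) and with the replicate block (0.0587). The second lost it without week 15 replicate 1 (-0.56, adjusted p = 0.117), week 29 replicate 1 (0.0734) or week 29 replicate 3 (0.0836).

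Fos, the subunit most often used as a marker of recent stimulation, varied most between arrays of 1 group. Its signals were 8.91, 9.33 and 7.33 in controls, 8.29, 8.58 and 9.54 at week 6, 8.61, 9.001 and 9.60 at week 15 and 7.96, 8.41 and 7.72 at week 29. Control replicate 3 was the lowest of the 12 arrays and week 15 replicate 3 the highest. Between weeks 29 and 15 the difference was -1.04 ± 0.46 (SE, n = 3 per group, adjusted p = 0.102), although every week 29 array lay below every week 15 array. Without control replicate 3, which is in neither group but adds to the shared spread, that difference passed (adjusted p = 0.0288), as it did with only the 2 groups fitted (0.0174). The other Fos probe set was dim, at 5.41 to 5.93, and did not follow the first (r = -0.06 over 12 arrays), so the platform holds 2 readings of Fos that disagree.

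Atf3 had 7.31, 8.76 and 7.31 in controls, 8.29, 8.64 and 8.24 at week 6, 8.09, 7.60 and 7.70 at week 15 and 7.65, 8.57 and 7.11 at week 29. The controls and the week 29 arrays both held 1 high array, replicate 2 in each case, and spanned all or most of the values of the other groups. Week 6 minus control was 0.60 with a 95% interval from -0.25 to 1.44 (adjusted p = 0.363). Week 29 minus control was -0.02, with an interval from -0.87 to 0.83. The week 15 arrays all lay below the week 6 arrays, with a difference of -0.59 (adjusted p = 0.254) that passed with only the 2 groups fitted (0.026).

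Egr1, a zinc finger factor induced by MAP kinase signalling, had 9.91, 10.35 and 8.68 in controls, 9.05, 8.74 and 9.63 at week 6, 10.45, 9.63 and 10.09 at week 15 and 9.04, 8.63 and 8.37 at week 29. The controls spanned almost the whole range, while the week 15 arrays all lay above the week 29 arrays. The week 29 arrays differed from week 15 by -1.38 ± 0.37 (SE, n = 3 per group, adjusted p = 0.0125), a 2.59-fold fall. It lost its call without week 15 replicate 1 (adjusted p = 0.0526) or week 29 replicate 3 (0.0568). Week 29 minus control was -0.96 (adjusted p = 0.0976), and without control replicate 3, the lowest control, it was -1.45 and passed (adjusted p = 0.0346). Week 15 minus week 6 was 0.92 (adjusted p = 0.0714) and passed in 6 of the alternatives run.

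Klf6, a Krüppel-like factor that acts as a tumor suppressor in several human tissues, had 9.70, 9.73 and 9.52 in controls, 9.77, 9.70 and 9.71 at week 6, 9.65, 9.53 and 9.56 at week 15 and 9.16, 9.22 and 9.04 at week 29. The week 29 arrays lay below the other 9 arrays. Week 29 minus control was -0.51 ± 0.09 (SE, n = 3 per group, adjusted p = 0.00954), the lowest p of the 10 genes in that comparison. Week 29 minus week 15 was -0.44 ± 0.09 (adjusted p = 0.00219). The fall against control lost its call without week 29 replicate 3 (-0.46, adjusted p = 0.0529), where 274 of all probe sets were called instead of 4705. The other 2 Klf6 probe sets gave -0.29 and -0.27 at week 29 against control and did not pass (adjusted p = 0.0803 and 0.187). Against week 15 they gave -0.23 (adjusted p = 0.112) and -0.55 (adjusted p = 0.0079).

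Dusp1, the MAP kinase phosphatase, had 10.37, 10.40 and 9.58 in controls, 10.44, 10.10 and 10.71 at week 6, 10.05, 9.86 and 10.25 at week 15 and 9.88, 10.01 and 9.55 at week 29. Every week 29 array lay below every week 6 array. Week 29 minus week 6 was -0.60 with a 95% interval from -1.08 to -0.12 (adjusted p = 0.431), and the second probe set gave -0.97 (adjusted p = 0.424). Dusp1 followed Fos, Egr1 and Zfp36 within groups, with r = 0.86, 0.88 and 0.85 between their deviations from the group means over 12 arrays. In controls, replicate 3 was the lowest for all of these genes, as for every other member except Jun.

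Zfp36, the mRNA decay factor also called tristetraprolin, had 9.19, 9.32 and 9.01 in controls, 9.46, 9.19 and 9.45 at week 6, 9.56, 9.38 and 9.57 at week 15 and 9.16, 9.06 and 8.84 at week 29. Every week 15 array lay above every control and every week 29 array. Week 29 minus week 15 was -0.48 ± 0.12 (SE, n = 3 per group, adjusted p = 0.00792) and stayed called whichever of the 12 arrays was left out. Week 15 minus control was 0.33 (adjusted p = 0.113) and passed after quantile normalization (0.42, adjusted p = 0.0497), as did Ier2 (0.53, adjusted p = 0.046).

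**Figure D2:**
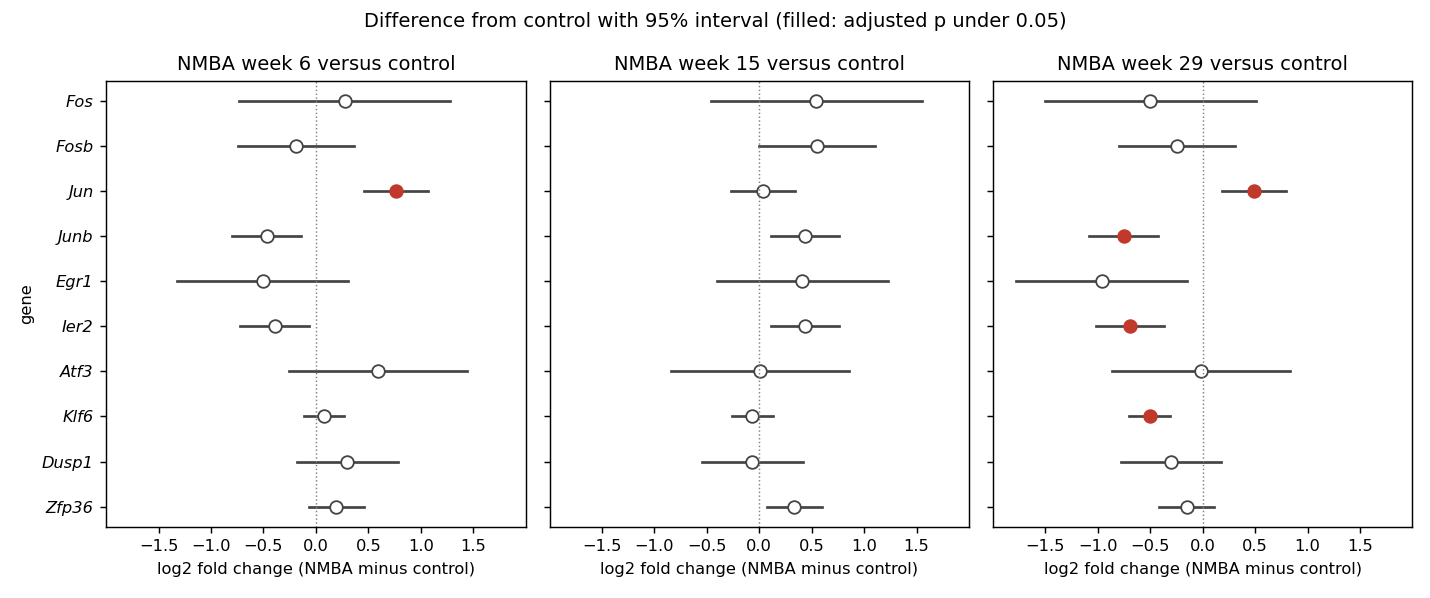
Log2 fold change of each gene, NMBA minus control, at weeks 6, 15 and 29, with 95% intervals from the limma fit (filled points: adjusted p under 0.05). Jun is filled at week 6 (0.77) and week 29 (0.49), and Junb (-0.75), Ier2 (-0.69) and Klf6 (-0.51) at week 29.

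Counted over the 10 genes, 1 was called higher and 0 lower at week 6 against control, where 5.07% of all genes were called higher and 3.76% lower. The median log2 fold change was 0.14 for the 10 genes and -0.03 for all genes. At week 15 against control, limma called 0 either way. At an unadjusted p under 0.05 there were 3 of the 10, near the 27.6% of all genes, and 2 were called after quantile normalization. Here 1.54% of all genes were called higher and 8.38% lower. At week 29 against control, 1 was called higher and 3 lower, beside 8.44% and 10.8% of all genes, with medians of -0.40 and 0.01. Groups did not overlap with controls for 2, 3 and 4 of the 10 at weeks 6, 15 and 29. The same held for 42.7%, 28.8% and 43.5% of all genes. Of all genes called, the share that was higher moved with scaling. It was 57.4% at week 6 and 45.8% after quantile normalization, 15.5% at week 15 and 28.8% after quantile normalization, and 43.8% at week 29 and 53.9% with array medians subtracted.

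Between week 15 and week 6, 3 of the 10 were called higher and 1 lower, beside 22.7% and 21.2% of all genes, with medians of 0.20 and 0.07. Week 29 against week 15 gave 1 higher and 6 lower, beside 21.1% and 22.4% of all genes, with medians of -0.64 and -0.02. In that comparison 8 of the 10 had groups that did not overlap, as did 52.1% of all genes. For week 29 against week 6 limma called 0, as for all genes (0% higher and 0% lower). An unadjusted p under 0.05 was found for 3 of the 10 and for 1166 of 14217 genes (8.2%). All 10 signs were negative there, with a median of -0.40, beside -0.0028 for all genes. The lowest adjusted p was that of Klf6 (-0.58, adjusted p = 0.172). The 3 comparisons with control share the control arrays, and the comparisons between weeks share arrays with them.

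The marker scores moved with these comparisons. Over the 12 arrays, which share tissue and scaling, the keratinocyte score correlated with the signals of Ier2 (r = 0.96), Junb (0.94) and Jun (-0.75). For the same genes in that order, r was -0.81, -0.74 and 0.69 with the muscle score. With the GAPDH value it was 0.56, 0.58 and -0.82, so Jun followed that value most closely. Among 23 squamous keratinocyte markers, 18 were lower and 0 higher at week 29 against control (median -0.89), and 22 were lower and 0 higher at week 29 against week 15 (median -1.34). Among 29 skeletal muscle markers, 0 passed at week 29 against control (median 0.38) and 24 were higher at week 29 against week 15 (median 1.38). With the keratinocyte score as a covariate, an alternative added after the data were seen, limma called 0 of the 10 genes in each comparison, and of all probe sets 2 at week 15 against control and 0 in the other comparisons. Ier2 was then at -0.07 at week 29 against control, where it had been at -0.69, and Junb at -0.30. Klf6 was at -0.45 and Jun at 0.26. At weeks 6 and 29 this score lay below that of every control. At week 15 it lay above, but only just (lowest 11.321, against 11.314 in the highest control), and 1 of 23 markers was called there. Stage and epithelial signal thus cannot be told apart in these arrays.

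With the muscle score as a covariate, Junb, Ier2 and Klf6 were still called at week 29 against control and Jun was not (0.42, adjusted p = 0.0708). Of the 7 genes called between weeks 29 and 15, only Junb was called with that covariate. Calls over all probe sets fell there from 10987 to 930, and at week 29 against control from 4705 to 3206. With the GAPDH value as a covariate, limma called 0 of the immediate early genes against control. Over all probe sets it called 8 against control at week 6, 2612 at week 15 and 132 at week 29. Without that covariate these counts were 2342, 2455 and 4705. Of the immediate early genes, Junb, Ier2, Klf6 and Zfp36 were called with it between weeks 29 and 15, and Junb and Ier2 between weeks 15 and 6. Calls over all probe sets fell there from 10987 to 6915 and from 11723 to 4849.

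**Figure D3:**
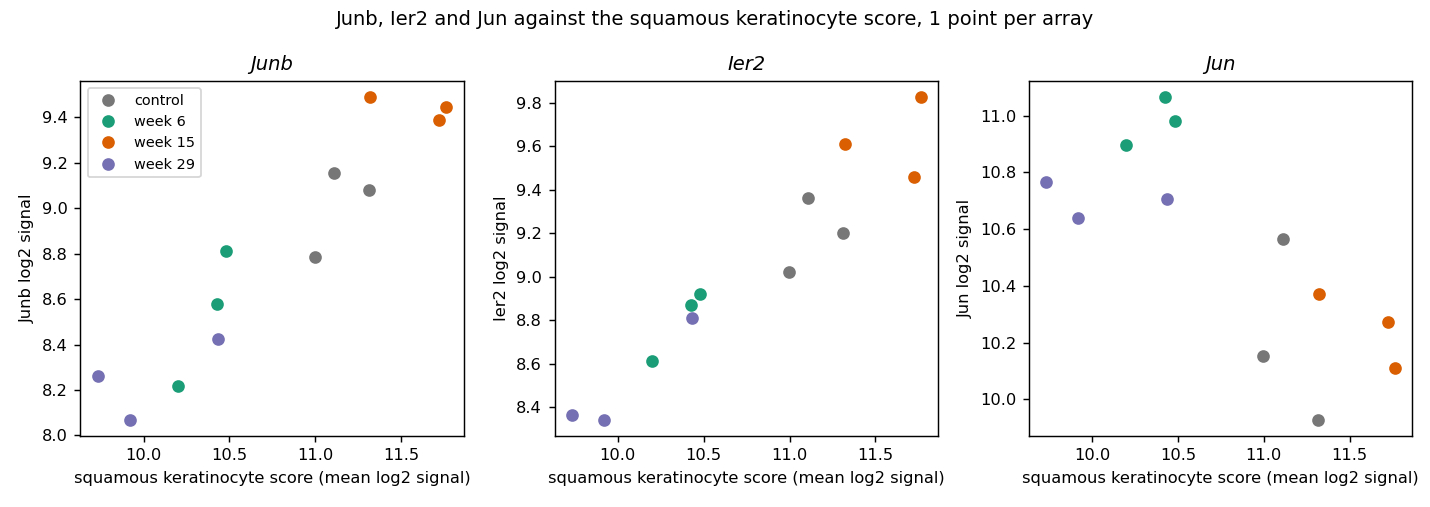
Log2 signal of Junb, Ier2 and Jun (vertical axes) against the squamous keratinocyte score, the mean log2 signal of 23 markers (horizontal axes), with 1 point per array coloured by group. Junb and Ier2 are low on arrays with a low score (week 29, from 9.73) and high on arrays with a high score (week 15, up to 11.76), and Jun runs the other way.

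The members differed in how much arrays of 1 group varied. The within-group SD, pooled over the 4 groups, was 0.69 for Fos, 0.58 for Atf3, 0.56 for Egr1, 0.37 for Fosb and 0.32 for Dusp1. These 5 lay above at least 92.2% of all genes, whose median was 0.15. It was 0.20 for Junb and for Ier2, 0.18 for Jun, 0.15 for Zfp36 and 0.08 for Klf6. Klf6 was thus steadier than most genes measured, above only 8.43% of them. Of the 5 variable genes, 2 were called in any comparison (Fosb and Egr1), and all 5 others were. The spread within groups enters the test itself, so a gene with less of it passes more readily. Among the others, Junb, Ier2 and Jun still varied more than 75.5%, 74.9% and 68.5% of all genes.

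**Figure D4:**
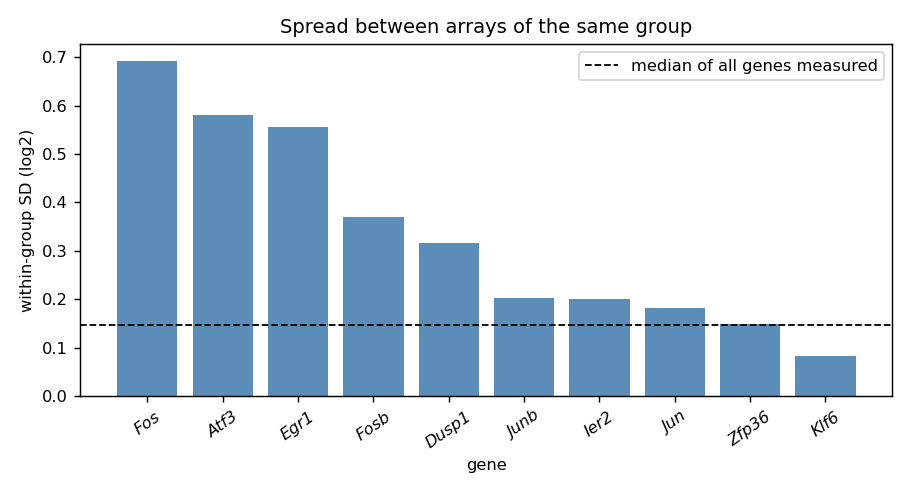
Within-group SD of log2 signal, pooled over the 4 groups of 3 arrays, for each gene (bars), with the median of all genes as a dashed line at 0.15. Fos (0.69), Atf3 (0.58) and Egr1 (0.56) stand highest, and Klf6 (0.08) lies below the line.

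Other genes of the same programme were taken from 6 lists, which overlap in part and left 111 genes measured beside the 10. At week 6 against control, 6 of the 111 were higher and 7 lower, beside 5.07% and 3.76% of all genes. At week 15, 2 were higher and 5 lower, beside 1.54% and 8.38%. At week 29, 6 were higher and 17 lower, beside 8.44% and 10.8%, with a median of -0.11. Week 15 against week 6 gave 30 higher and 26 lower, beside 22.7% and 21.2%, and week 29 against week 15 gave 22 higher and 39 lower, beside 21.1% and 22.4%. Differences between the lists were not tested.

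Among 23 other immediate early transcription factors, 7 were lower and 0 higher at week 29 against control, beside 10.8% and 8.44% of all genes. Their median log2 fold change was -0.37. Against week 15, 12 were lower and 2 higher (median -0.43), beside 22.4% and 21.1%. Squamous keratinocyte markers fell in the same comparisons (18 and 22 of 23), and their part in the result was not tested. Id1 and Id3, inhibitors of basic helix-loop-helix factors, were at -1.22 and -0.87 against control. Ier5, a relative of Ier2, had 7.98, 7.57 and 7.54 at week 29, against 8.96, 8.71 and 8.67 in controls, a difference of -1.09 ± 0.15 (SE, n = 3 per group, adjusted p = 0.00504). Its week 29 arrays lay below every control, as for Ier2. Nr4a1, an orphan nuclear receptor, ran the other way and was 1.22 higher at week 29 than at week 15 (adjusted p = 0.00354). Klf9, a Krüppel-like factor that responds to glucocorticoids, was lower at week 15 than in controls (-0.80).

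Among 15 AP-1 and bZIP partners, 0 passed at week 29 against control, where 8.44% of all genes were higher and 10.8% lower. At week 15, 1 partner rose, beside 1.54% of all genes. That partner was Fosl2, the Fos family subunit Fra-2, with 7.57, 7.37 and 7.61 at week 15, against 7.01, 7.01 and 6.91 in controls, a difference of 0.54 ± 0.11 (adjusted p = 0.0173). Week 29 minus week 15 was -0.89 for Fosl2 and 0.68 for Crem, a repressor and activator of cAMP response elements.

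Induced feedback regulators were mixed, with 2 of 26 higher and 5 lower at week 29 against control, beside 8.44% and 10.8% of all genes. The stress gene Gadd45a had 9.56, 9.59 and 9.71 at week 29, against 8.41, 9.05 and 8.59 in controls. It was higher at week 29 (0.93 ± 0.17, adjusted p = 0.0104) and lower at week 15 (-1.02, adjusted p = 0.00767), the reverse of Junb in its signs. Dusp10, another MAP kinase phosphatase, was 1.05 higher at week 29 than in controls, and Nfkbia, the inhibitor of NF-kappaB, was at -1.01.

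Of 23 induced growth, matrix and secreted genes, 2 were lower at week 29 against control, beside 10.8% of all genes. The counts against week 15 were 11 lower and 1 higher, beside 22.4% and 21.1%. Ccn2, connective tissue growth factor, was at -0.86 and the EGFR ligand Areg at -0.72 against control. Areg was dim, with a mean signal of 3.70 at week 29 and 4.42 in controls. The cytokine genes Il1b (-1.10) and Cxcl1 (-1.09) were lower at week 29 than at week 15. At week 15, replicate 1 stood highest, with Il1b at 8.08 against 6.35 and 6.26, and Cxcl1 at 6.66 against 5.51 and 5.66. For both genes every week 29 array lay below every week 15 array. Granulocyte markers moved with this comparison, with 3 of 4 lower and a score of 4.14 to 4.39 at week 29 and 5.06 to 6.19 at week 15, and their part in the result was not tested. Ereg, another EGFR ligand, was the gene of this list that rose at week 15 (0.87).

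Of 16 transcripts that Zfp36 is known to bind in mouse or human cells, 3 were lower and 0 higher at week 29 against control (median -0.17). The shares of all genes were 10.8% and 8.44%. Set against week 15, 6 were lower, beside 22.4% of all genes. Those lower than in controls were Ccl2, a monocyte chemokine (-1.04), Ccnd1, cyclin D1 (-1.03), and Ier3 (-0.70). Among 17 upstream serum response and MAP kinase genes, 4 were higher and 1 lower at week 29 against control, beside 8.44% and 10.8%. From week 15 to week 29, 12 were higher and 3 lower (median 0.50), beside 21.1% and 22.4% of all genes. The kinase genes Rps6ka5 (0.97) and Mapk9 (0.78) were higher and Elk3, an ETS factor that partners serum response factor, was lower (-0.73) at week 29 against control. At week 15 Mapk8 (-0.59) and Rps6ka3 (-0.51) were lower than in controls. Muscle markers moved the same way as most of these kinases between weeks 29 and 15, and their part in the result was not tested.

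Likeness to the 10 genes was measured as Pearson's r, over the 12 arrays, with the mean of their standardised signals, for 14207 other genes. The 5 most alike were Ccn1 (r = 0.87), which encodes a matrix protein, Errfi1 (0.86), an EGFR feedback inhibitor, Leprotl1 (0.85), Mphosph10 (0.82) and Noc4l (0.79). The mean standardised signal itself was highest on control replicate 2 (0.78) and week 15 replicate 1 (0.77) and lowest on week 29 replicate 3 (-1.21) and control replicate 3 (-0.81). Arrays of the control group thus lay near both ends of the range.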

How the data were processed

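Total RNA of 12 rat esophagus samples was measured on 12 arrays. The deposited table holds log2 signals per probe set, and the submitters' processing notes name Affymetrix Expression Console as the tool the authors used. Version, summarization and filters are not given. The log2 scale was read from the values (2.49 to 14.71). Precision is set by the small number of arrays. No detection values were used.

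Values were used as deposited. After 57 array controls were removed, 31042 probe sets were tested and dim ones were kept. Of these, 20826 had 1 gene symbol in the platform annotation, 436 had several and 9780 were unlisted. The RefSeq gene table held the identifiers of 20758, with 0 changes of symbol. The brightest probe set stood for each of 14217 genes. A single limma 3.58.1 model (R 4.3.3; lmFit, eBayes) of the 4 groups, with 8 residual degrees of freedom, gave two-sided tests. Benjamini-Hochberg adjustment ran over all 31042 probe sets, and calls were made where the adjusted p lay below 0.05. The fit was tested on simulated data.

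Members and lists were chosen with earlier results of these data known. From each of the 6 lists of related genes, the rule named up to 3 called members with the largest change at week 29 against control, and up to 2 at week 15 against control and at week 29 against week 15. The 5 genes most alike were named too. Replicate numbers did not pair the arrays: same-numbered arrays' deviations correlated at -0.41 to 0.29. No arrays were identical (7 to 47 equal values per pair). Alternatives were 2 scalings, a filter on dim probe sets, the 6 arrays alone, an intensity trend with a robust prior, a replicate block, covariates, averaged probe sets and each array left out.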

Additional observations from a re-analysis of the deposited data

Results flagged for a closer look

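The differences from control at 2 weeks were set against each other through the direct test between those weeks, in which the shared controls cancel, and 11 such differences passed. Week 15 differed from week 6 for Fosb (0.74), Jun (-0.73), Junb (0.91) and Ier2 (0.83). Week 29 differed from week 15 for Fosb (-0.80), Jun (0.45), Junb (-1.19), Egr1 (-1.38), Ier2 (-1.13), Klf6 (-0.44) and Zfp36 (-0.48), all on the log2 scale. Of all genes, 22.7% were called higher and 21.2% lower between weeks 15 and 6, and 21.1% and 22.4% between weeks 29 and 15. For Junb and Ier2, week 15 lay above and week 29 below every control. No group had enough arrays for a test of single outlying arrays.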

How the results depend on the processing

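The 16 called differences of single genes were recomputed under each alternative, which gave 355 values. Of these, 281 stayed called, 73 kept their sign without passing, and 1 changed sign. That was Zfp36 between weeks 29 and 15, at 0.022 with the keratinocyte score as a covariate, and the cause was not tested. Of 989 values of differences that had not passed, 42 changed sign and 12 passed.

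The number of the 10 genes called, leaving out 1 array at a time, ranged from 0 to 1 at week 6 against control, 0 to 0 at week 15, 0 to 4 at week 29, 3 to 5 between weeks 15 and 6, 4 to 8 between weeks 29 and 15, and 0 to 0 between weeks 29 and 6. At week 29 it was 1 without control replicate 1 or week 29 replicate 2 (Klf6 in both cases) and 0 without week 29 replicate 3. Between weeks 29 and 15 it was 4 without week 29 replicate 3. Quantile normalization gave 2 at week 15 against control. With the muscle score the count was 0 at week 6, 0 between weeks 15 and 6 and 1 between weeks 29 and 15. The counts over all probe sets were then 17, 255 and 930. With the GAPDH value the count of the 10 genes was 0 at week 6, 0 at week 29, 2 between weeks 15 and 6 and 4 between weeks 29 and 15. Over all probe sets 8, 132, 4849 and 6915 were called. With the keratinocyte score, chosen after seeing the data, the count of the 10 genes was 0 at weeks 6 and 29, 0 between weeks 15 and 6 and 0 between weeks 29 and 15. The cause of these changes was not tested.

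The replicate block gave 1, 0 and 3 genes at weeks 6, 15 and 29 against control, 3 between weeks 15 and 6, 7 between weeks 29 and 15 and 0 between weeks 29 and 6. Jun at week 29 and Fosb between weeks 15 and 6 lost their calls, and 3 of 12 arrays correlated best with an array of their own number. The week 15 arrays were left out as an alternative chosen after seeing the data, and the counts at weeks 6 and 29 were 1 and 4, the same genes as with them. The filter on dim probe sets left Fosb untested.

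Over all probe sets, the 2342 called at week 6 against control were 1 to 3454 with 1 array left out and 0 to 4391 under the other alternatives. The 2455 at week 15 were 881 to 3057 and 0 to 2612, and the 4705 at week 29 were 274 to 6120 and 0 to 6091. Between weeks 15 and 6 the 11723 were 8965 to 11704 and 0 to 11639, and between weeks 29 and 15 the 10987 were 8115 to 11490 and 0 to 11364.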
